A study of Mus musculus with 4 samples.

Results

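The cells described here carried transcripts of *Tnmd* and *Thbs4*, genes used to mark tenocytes, the fibroblasts that build tendon. Members were selected on their own *Tnmd*, *Thbs4* and *Ptprc* counts, and a cell was a member when it held at least 1 unique molecular identifier (UMI, the tag that counts a captured transcript) of *Tnmd*, at least 2 of *Thbs4*, none of *Ptprc*, the gene of the leukocyte antigen CD45, and at most 10% of its UMIs from mitochondrial genes. This rule took 2199 of the 62665 cells in the 4 libraries, 155 from Uninjured muscle, 55 at 1 day post injury (dpi), 155 at 3 dpi and 1834 at 7 dpi, so that 83.4% of the members came from 7 dpi. All libraries came from tibial muscle of *Nse-Bmp4* mice on the C57BL/6 strain, 6-8 weeks old, in which the neuron-specific enolase promoter drives *Bmp4*, and the injury was made with cardiotoxin. Each library pooled 3 muscles and stood alone for its time point, and a wild type library is not among them, so that time point and library cannot be told apart and the *Bmp4* transgene was present throughout. The libraries held 112317902, 91146335, 116346301 and 129007669 UMIs in the order Uninjured, 1, 3 and 7 dpi, in which all series of values below are given, and members had median depths of 10754, 6642, 9622 and 5624 UMIs. Pairs of libraries shared 30 to 95 cell barcodes.

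Tenocytes lie in rows between parallel collagen fibrils and secrete type I collagen together with proteins that set fibril diameter. Tenomodulin (*Tnmd*) is a transmembrane glycoprotein of the tendon lineage that acts downstream of the transcription factor scleraxis (*Scx*), and thrombospondin 4 (*Thbs4*) is a matricellular protein of tendon and muscle attachments. Fibromodulin (*Fmod*) and keratocan (*Kera*) are small leucine-rich proteoglycans that bind collagen, and chondroadherin (*Chad*) is a leucine-rich protein that binds collagen and integrins and is also made by cartilage. *Fmod*, *Kera* and *Chad* were not used by the rule, and the label of the cells was checked on them.

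Scleraxis is a basic helix-loop-helix factor, a class that binds the E-box, CANNTG, which reads the same way on both strands. The promoter sequence of the checking genes *Fmod* and *Chad* is shown because *Scx* is followed below and because RefSeq and GENCODE place the starts of these genes at the same base, whereas the RefSeq windows of *Tnmd* and *Kera* reach into the GENCODE gene. This choice was made after the E-box counts given below were known. Each run is the 250 bases before the RefSeq start on the plus strand of GRCm38.p6, at chr1:134037004-134037253 for *Fmod* and chr11:94564797-94565046 for *Chad*, with the E-box in capitals.
Fmod: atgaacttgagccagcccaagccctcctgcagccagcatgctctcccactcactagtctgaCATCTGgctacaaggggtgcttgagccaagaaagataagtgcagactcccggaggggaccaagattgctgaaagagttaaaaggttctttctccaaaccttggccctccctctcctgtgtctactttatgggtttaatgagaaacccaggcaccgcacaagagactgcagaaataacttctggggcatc
Chad: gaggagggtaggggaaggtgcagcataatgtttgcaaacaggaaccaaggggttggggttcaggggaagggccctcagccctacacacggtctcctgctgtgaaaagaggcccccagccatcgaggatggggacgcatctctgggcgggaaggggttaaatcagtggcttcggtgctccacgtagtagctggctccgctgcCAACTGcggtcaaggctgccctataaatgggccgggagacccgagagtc
The *Fmod* window held 1 E-box, CATCTG, and the *Chad* window 1, CAACTG. Of the windows of all 5 marker genes, 3 held an E-box, those of *Thbs4*, *Fmod* and *Chad*, and those of *Tnmd* and *Kera* held 0. An E-box stood in 66.2% of the 32851 promoter windows of this length, so its presence in the marker windows was near that of promoters in general, and a match is no evidence of binding.

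Cells that met the rule made up a larger share of the 7 dpi library than of the others. They were 1.31% of the cells within the mitochondrial limit in Uninjured muscle (95% Clopper-Pearson interval 1.11 to 1.53), 0.507% at 1 dpi (0.382 to 0.659), 1.10% at 3 dpi (0.933 to 1.28) and 7.97% at 7 dpi (7.62 to 8.32). Thinning to 2000 UMIs, which evens out depth, used 11271 of 11827, 9885 of 10853, 11073 of 14118 and 16120 of 23026 cells. Among the thinned cells the shares were 0.843%, 0.384%, 0.605% and 4.24%, and the order of the 7 dpi library above the rest was kept. Intervals here cover counting error only, and with 1 library a time point no test between time points was possible. Cells with *Ptprc*, which should lack both genes, met the same *Tnmd* and *Thbs4* thresholds in 0.277%, 0.123%, 0.497% and 5.20% of cases, at median depths of 4792, 5320, 4008.5 and 2700 UMIs against 8950, 6759, 4868 and 3242 UMIs in the cells without *Ptprc*. The share was thus highest at 7 dpi in leukocytes too, and the part of free RNA or of doublets in it was not tested. Among the members, 8.39%, 1.82%, 3.23% and 7.85% had one of the 7.5% highest doublet scores of their library.

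**Figure D1:**
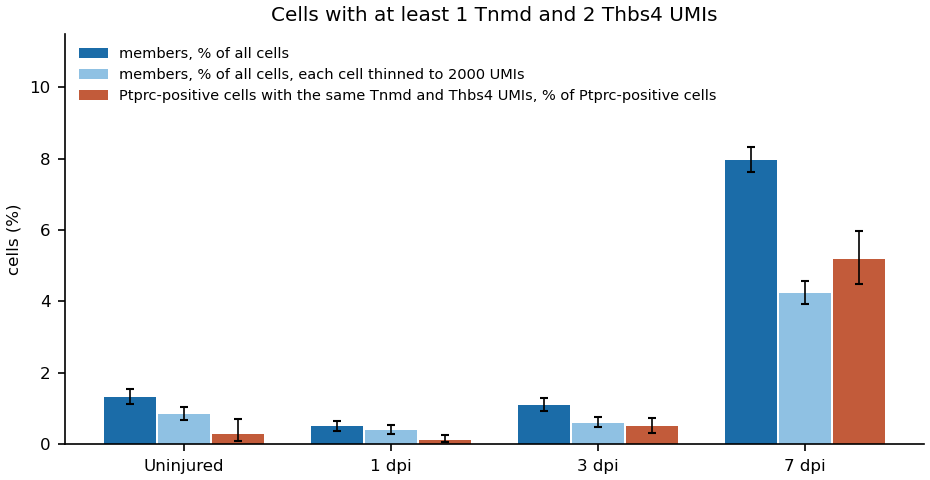
Share of cells, in percent, that met the *Tnmd* and *Thbs4* thresholds in each library, with 95% Clopper-Pearson intervals. The share was highest at 7 dpi, at 7.97% of all cells within the mitochondrial limit, and the share of *Ptprc*-positive cells was highest in the same library, at 5.20%.

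The genes used by the rule are given as a description. Members had a median of 15 *Tnmd* UMIs in Uninjured muscle, 4 at 1 dpi, 3 at 3 dpi and 2 at 7 dpi. For *Thbs4* the medians were 28, 41, 42 and 4 UMIs, so most members at 7 dpi lay near the thresholds. At 7 dpi the 472 cells with exactly 2 *Thbs4* UMIs, just inside the rule, had a *Kera* UMI in 7.42% of cases, and the 745 cells with 1, just outside it, in 5.10%. In Uninjured muscle 9 cells lay just inside and 25 just outside, and none of them held a *Kera* UMI. The *Tnmd* threshold was looked at in cells with at least 2 *Thbs4* UMIs. At 7 dpi *Kera* was found in 8.14% of the 749 cells with 1 *Tnmd* UMI and in 1.415% of the 4100 with 0. At 3 dpi these shares were 22.0% of 50 cells and 0.646% of 1702.

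Other mesenchymal cells, the main comparison group, were those with *Prrx1* and *Col1a1*, without *Ptprc* and outside the rule, from which cells with *Tnmd* and no *Thbs4* had been taken out as a group of their own. The tenocyte label fitted a part of the members up to 3 dpi and went against the data for most members at 7 dpi. *Kera* was detected in 45.8% of members in Uninjured muscle, 43.6% at 1 dpi, 43.2% at 3 dpi and 13.1% at 7 dpi, while other mesenchymal cells gave 0.231%, 0.122%, 0.291% and 1.25%. *Chad* was detected in 31.6%, 50.9%, 36.8% and 5.67% of members. At 7 dpi this was no more than the 7.39% of other mesenchymal cells and close to the 4.11% of *Ptprc*-positive cells. *Fmod* was detected in 75.5%, 74.5%, 78.1% and 82.7% of members. Outside the members it was found in 3.00%, 2.16%, 9.01% and 61.3% of other mesenchymal cells and in 1.46%, 0.948%, 2.47% and 33.8% of *Ptprc*-positive cells, so at 7 dpi it separated the members little. None of the 3 checking genes was found in 38, 14, 33 and 302 members, and all 3 in 48, 17, 41 and 43. The members are therefore called by the rule, as *Tnmd* and *Thbs4* cells, and no cell type is given to those of 7 dpi.

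Read the other way, the share of *Kera* cells that were members was lower at 7 dpi than before. Of the cells with at least 2 *Kera* UMIs, 69 of 71 were members in Uninjured muscle, 22 of 23 at 1 dpi, 51 of 58 at 3 dpi and 137 of 177 at 7 dpi. As a share of the members these were 44.5% in Uninjured muscle, 32.9% at 3 dpi and 7.47% at 7 dpi, and 22 of the 55 members at 1 dpi. With at least 1 *Kera* UMI, 241 members and 102 other mesenchymal cells were found at 7 dpi, against 71 and 13 in Uninjured muscle. *Col2a1*, which encodes the main collagen of cartilage, was found in 18.1%, 5.45%, 5.16% and 61.1% of members, and at 7 dpi in 61.2% of other mesenchymal and 46.4% of *Ptprc*-positive cells.

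**Figure D2:**
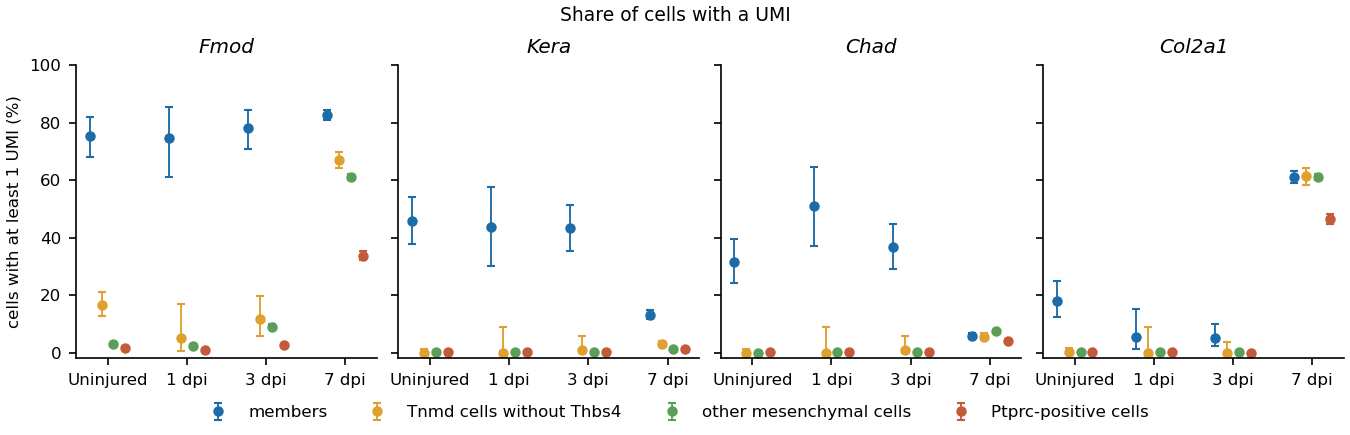
Percent of cells with at least 1 UMI of *Fmod*, *Kera*, *Chad* and *Col2a1* by library in the members and in the groups outside the rule. *Kera* stands apart from the other groups at every time point, at 13.1% of members at 7 dpi, whereas *Chad* at 7 dpi, at 5.67%, does not.

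UMIs were then summed over the cells of each group in each library, and the members were compared with other mesenchymal cells (5635, 2449, 4463 and 8189 cells) across the 4 libraries by edgeR's quasi-likelihood test with the library as a block. Levels are UMIs of a gene per 1000000 UMIs of the group (CPM), and differences are log2 fold changes with their standard error. A call is an average difference over the 4 libraries and need not hold in each of them. The libraries are time points and not replicates of a condition. Of 12563 genes tested, 130 were higher in members, which is 1.03%, and 100 lower, which is 0.796%, at a Benjamini-Hochberg adjusted p under 0.05. The number rested on the choice of libraries and tool: leaving out Uninjured muscle left 10 higher and 6 lower, leaving out 1 dpi 3 and 1, and leaving out 3 dpi 2 and 1, while leaving out 7 dpi gave 348 and 346. *Ptx4*, which encodes a long pentraxin, was the gene among the 230 called that passed with each library left out in turn, although 229 of the 230 kept their direction in every setting that tested them.

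Among the tendon proteoglycans, *Kera* stood at 413, 691, 215 and 73.98 CPM in members and at 0.245, 0.310, 0.468 and 2.11 CPM in other mesenchymal cells. The groups did not overlap in any library, and the log2 difference was 8.89 ± 0.99 (SE, adjusted p = 0.00407 by edgeR). *Fmod* stood at 2877, 8020, 3023 and 765 CPM in members against 18.3, 5.58, 30.7 and 450 CPM. The log2 difference of *Fmod* was 7.05 ± 1.39 (adjusted p = 0.0327 by edgeR), and its gap was narrowest at 7 dpi. Of the 14 small leucine-rich proteoglycans tested, 5 were higher and 0 lower, with a median log2 difference of 0.75 against -0.03 over all genes tested. The other calls were *Aspn*, which encodes asporin, at 0.95, *Ogn*, which encodes osteoglycin, at 0.83, and *Ecm2* at 0.75. *Dcn*, *Lum* and *Bgn*, which encode the widespread members decorin, lumican and biglycan, did not pass, and *Dcn* stood at 12344, 20877, 7838 and 2300 CPM in members against 14529, 11056, 5536 and 2372 CPM. *Chad*, at 350, 1040, 197 and 24.5 CPM against 0, 0.310, 0.742 and 26.9 CPM, did not pass either (adjusted p = 0.0544 by edgeR), and at 7 dpi it was not higher in members.

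Transcription factors of the tendon lineage were led by *Scx* and *Mkx*, which encodes the homeobox factor mohawk. *Scx* stood at 335, 129, 71.5 and 202 CPM in members and at 0.721, 0.516, 9.22 and 49.3 CPM in other mesenchymal cells (log2 difference 5.23 ± 1.09, adjusted p = 0.0408 by edgeR). *Mkx* stood at 25.4, 82.8, 47.8 and 10.2 CPM against 0.261, 0.310, 1.08 and 2.99 CPM (5.19 ± 0.82, adjusted p = 0.0159). For both factors every library had the higher value in members. *Six2* was the other factor called (2.68 ± 0.40), which makes 3 of 12 tested higher and 0 lower, with a median log2 difference of 0.52. *Egr1*, an early response factor that also acts in tendon, stood at 1217, 3384, 1111 and 897 CPM against 2165, 2537, 1228 and 907 CPM and did not pass.

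Further genes with the largest differences had other roles. *Cilp2*, which encodes a cartilage intermediate layer protein, stood at 481, 660, 129 and 44.8 CPM in members and at 1.503, 0.482, 0.516 and 1.79 CPM in other mesenchymal cells (7.94 ± 0.85, adjusted p = 0.00395 by edgeR). *Ptx4* stood at 82.6, 80.2, 56.2 and 19.5 CPM against 0.215, 0.241, 0.435 and 0.481 CPM (7.13 ± 0.56, adjusted p = 0.00102). *Col22a1*, a collagen of the junction between tendon and muscle, stood at 76.3, 122, 9.29 and 21.3 CPM against 0.0767, 1.14, 0.194 and 0.466 CPM (6.87 ± 0.66, adjusted p = 0.00245). *Wif1*, which encodes a secreted Wnt inhibitor, was higher by 6.81 ± 1.41, and its course over time is given below. The remaining genes among the 10 largest were *Shisal2b* (7.43), *Gm525* (6.65), *Chst5*, which encodes a sulfotransferase (6.15), and *Atp6v0a4*, a subunit of the proton pump (5.47). Of 18 further genes of a tendon signature that were tested, 6 were higher and 1 lower, with a median of 1.91. *Comp* and *Angptl7* had log2 differences of 4.62 ± 1.13 and 4.43 ± 1.12 and did not pass (adjusted p = 0.0704 and 0.0753 by edgeR).

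**Figure D3:**
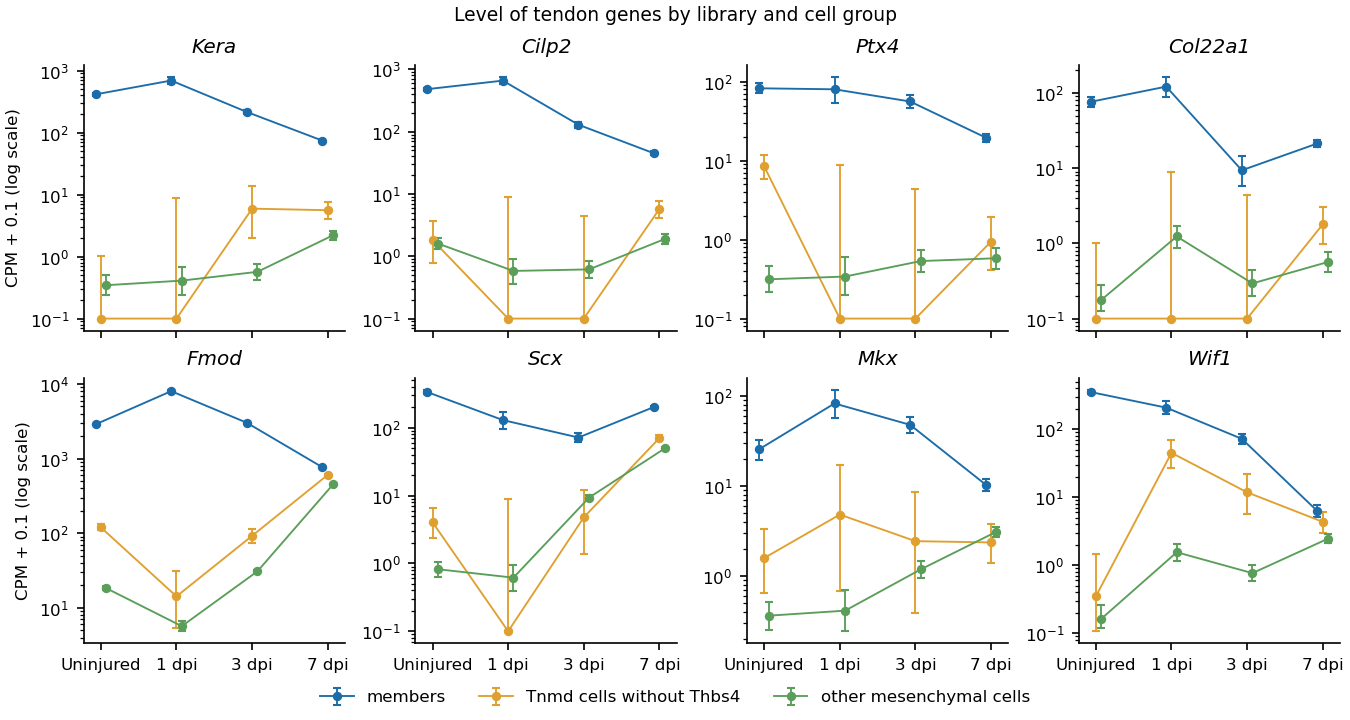
Level of 8 tendon genes in each library, in CPM with 0.1 added on a log axis, in members and in the comparison groups. *Kera*, *Cilp2*, *Ptx4* and *Scx* lie higher in members than in other mesenchymal cells in every library, and the gap of *Fmod* is narrowest at 7 dpi, at 765 against 450 CPM.

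Fibrillar collagen and associated genes, a list that also held *Col22a1*, had calls in both directions. *Col1a2*, a chain of type I collagen, stood at 15841, 10102, 8775 and 12639 CPM in members against 6375, 3384, 5627 and 10412 CPM (log2 difference 1.02 ± 0.20, adjusted p = 0.0293 by edgeR). *Col3a1*, of the thinner type III fibrils, stood at 8569, 4483, 6784 and 10211 CPM against 10750, 4216, 8354 and 9772 CPM and did not pass. Across 19 fibril collagens and associated genes 4 were higher and 2 lower, with a median of 0.21. Of 23 matricellular genes 3 were higher and 0 lower, with a median of 0.53, and *Thbs2* (1.72 ± 0.36) and *Thbs1* (1.25 ± 0.25), relatives of the gene in the rule, were among them.

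Genes of other fibroblasts were lower in members. Of 18 markers of interstitial fibroblasts, 9 were lower and 0 higher, with a median log2 difference of -0.94. *Pdgfra*, the receptor that marks muscle fibroblasts, stood at 137, 140, 144 and 67.5 CPM against 295, 485, 256 and 87.6 CPM (-0.92 ± 0.20, adjusted p = 0.0480 by edgeR). *Cd55*, which encodes a complement regulator, stood at 40.3, 5.17, 20.9 and 20.3 CPM against 334, 259, 74.9 and 40.2 CPM (-2.20 ± 0.43, adjusted p = 0.0308). Of 11 genes of tendon sheath and surface 1 was higher and 4 lower; the higher one was *Prg4*, which encodes the lubricant lubricin (1.36 ± 0.25), and *Tppp3* was lower (-0.90 ± 0.13). Among the 10 genes with the largest negative differences were *Akr1c18*, a steroid dehydrogenase (-4.33 ± 0.43), and the muscle genes *Myod1* (-3.97) and *Chrna1* (-2.77). The 6 satellite cell and myoblast genes tested included 3 lower. *Car3*, *Krtdap*, *Gal*, *Ces1d*, *Dmkn*, *Efemp1* and *Pla1a* completed the list, between -3.27 and -2.62. None of the genes tested passed in the lists of chondrocyte, osteogenic, bone morphogenetic protein response, interferon, immediate early, cell cycle, secretory pathway and inflammation genes.

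**Figure D4:**
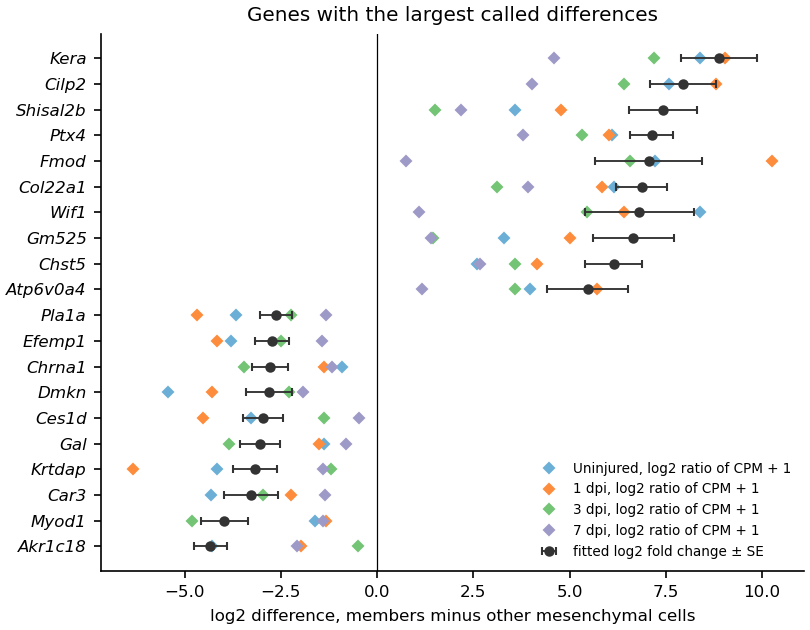
Log2 difference between members and other mesenchymal cells for the 10 largest calls in each direction, with its standard error and the value of each library on log2(CPM + 1) as points. *Kera* leads the genes higher in members at 8.89 and *Akr1c18* those lower at -4.33.

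Members were also set against cells with *Tnmd* but no *Thbs4* (335, 40, 95 and 1197 cells), which differ from them by 1 gene of the rule. Of 12563 genes, 35 were higher in members (0.279%) and 110 lower (0.876%) by the same test. Leaving out Uninjured muscle or 3 dpi left 0 calls by edgeR, with 1053 and 1256 genes at an unadjusted p under 0.05, and leaving out 1 dpi left 1 higher and 3 lower. Without 7 dpi there were 213 and 401, and DESeq2 on all libraries called 269 and 423. *Kera* was higher again (6.93 ± 1.10, adjusted p = 0.0263 by edgeR), at 0, 0, 5.83 and 5.50 CPM in the cells without *Thbs4*. So were *Cilp2* (6.35), *Col22a1* (5.48), *Ptx4* (3.98), *Chodl*, which encodes a lectin-like membrane protein (5.05), *Ntng1*, a netrin relative (3.93), and *Prph*, an intermediate filament gene (3.92). *Fmod* (5.48 ± 1.25, adjusted p = 0.0666), *Scx* (4.52 ± 1.23, adjusted p = 0.106) and *Wif1* (4.42 ± 1.53, adjusted p = 0.195) did not pass by edgeR, although each was higher in members in all 4 libraries.

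The genes lower in members included those of contractile mural cells. *Myh11*, the smooth muscle myosin, stood at 37.7, 0, 14.4 and 24.7 CPM in members and at 790, 1017, 111 and 189 CPM in cells with *Tnmd* and no *Thbs4* (-4.14 ± 0.61, adjusted p = 0.0235 by edgeR). *Myocd*, its transcriptional coactivator (-4.96), *Gja4*, a vascular connexin (-4.48), *Pln*, phospholamban (-4.15), and *Des*, desmin (-2.50), were lower too. Summed over 10 pericyte and smooth muscle markers, of which *Acta2* was the most abundant, the level was 5691, 6128, 1149 and 3898 CPM in the cells without *Thbs4* against 700, 362, 727 and 2248 CPM in members. Of these 10 genes 3 were lower and 0 higher. The levels of both groups came closest at 3 and 7 dpi.

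The members were also divided into cells with and without *Kera* or *Chad*. This division was made after the values had been seen, so its values are a description, and *Kera* and *Chad* themselves say nothing in it. It set apart 72, 35, 83 and 301 members, which is 46.5%, 63.6%, 53.6% and 16.4% of them. In Uninjured muscle these cells had *Fmod* at 7998 CPM and *Scx* at 994 CPM, and the members without *Kera* and *Chad* had 589 and 39.9 CPM. *Ccl2*, a monocyte chemokine, went the other way, at 64.5 CPM with and 2022 CPM without, as did *Ly6a*, which encodes the fibroblast and stem cell antigen Sca-1, at 174 and 1669 CPM. At 7 dpi the gap was smaller, with *Fmod* at 1988 and 557 CPM, *Scx* at 353 and 176 CPM, and *Ly6a* at 365 and 368 CPM. For comparison, other mesenchymal cells had *Ly6a* at 2148 CPM and *Fmod* at 18.3 CPM in Uninjured muscle.

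Over time, levels in the members are ratios to the Uninjured library with exact 95% intervals, and a gene was counted as 2-fold changed after 10 CPM had been added to both values. At 1 dpi interferon-stimulated genes were higher, in members and in other mesenchymal cells. *Irf7*, a transcription factor of the interferon response, stood at 5.08, 176, 68.2 and 12.4 CPM, a ratio of 34.6 at 1 dpi (18.6 to 70.2), and at 27.7, 201, 50.2 and 22.8 CPM in other mesenchymal cells. *Bst2*, which encodes the antiviral protein tetherin, stood at 126, 1035, 336 and 140 CPM, a ratio of 8.20 (7.04 to 9.56). Of 15 interferon-stimulated genes with at least 20 UMIs, 12 were at least 2-fold higher at 1 dpi, where 5.75% of all genes were, and 9 of 16 at 3 dpi, where 2.02% were. In other mesenchymal cells the ratios at 1 dpi were 7.26 for *Irf7* and 6.29 for *Bst2*. There 11 of 16 genes of the list were at least 2-fold higher, where 1.16% of all genes were, and the difference between the groups was not tested. The summed level of the leukocyte markers in members was 30.5 CPM in Uninjured muscle and 274 CPM at 1 dpi, a ratio of 8.99 (6.60 to 12.3), with 3 of the 4 genes with at least 20 UMIs at least 2-fold higher, and its part in the interferon genes was not tested. The most abundant of these markers at 1 dpi was *S100a9*, of neutrophils, at 87.96 CPM, while *Cd3e* and *Cd79a*, of T and B cells, were at 0, as was *Ptprc* by the rule. At 1 dpi *Gm42418*, a locus that collects ribosomal RNA reads, took 73354 CPM of the members against 10466 in Uninjured muscle, 17632 at 3 dpi and 24469 at 7 dpi, and the median mitochondrial share of members was 1.93%, 4.10%, 3.45% and 3.03%. Their part in the 1 dpi levels was not tested.

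Many genes of the tendon signature were lower at 3 and 7 dpi. Of 16 genes of the tendon signature with at least 20 UMIs, 10 were at least 2-fold lower at 3 dpi, where 2.20% of all genes were, and 11 of 19 at 7 dpi, where 2.37% were; 0 were higher at either time. Of 12 tendon transcription factors with at least 20 UMIs, 1 was higher and 1 lower at 3 dpi, and 0 and 0 at 7 dpi; in the members with *Kera* or *Chad* 1 of 11 was higher and 2 lower at 3 dpi, and 0 of 12 higher and 1 lower at 7 dpi. The difference between the lists was not tested. In other mesenchymal cells 5 of 18 tendon signature genes were lower and 2 higher at 3 dpi, where 2.16% and 2.80% of all genes were. At 7 dpi 5 of 20 were lower and 2 higher in those cells, where 3.165% and 2.57% of all genes were. The difference between the groups of cells was not tested. In members *Angptl7*, a secreted protein of tendon and the eye, stood at 1069, 2468, 346 and 3.25 CPM. *Wif1* stood at 352, 207, 72.0 and 6.11 CPM. *Prg4* followed another course, at 1296, 3624, 3781 and 70.5 CPM, high at 1 and 3 dpi and low at 7 dpi. In the members with *Kera* or *Chad* alone, *Cilp2* stood at 1478, 977, 313 and 253 CPM, *Wif1* at 1104, 327, 179 and 35.2 CPM, and *Scx* at 994, 188, 135 and 353 CPM, so the lower levels were present in that division too, where 12 of 16 genes of the signature were at least 2-fold lower at 7 dpi against 3.5% of all genes. At 7 dpi some cells of this division held *Chad* and no *Kera*. Of 15 chondrocyte markers with at least 20 UMIs, 13 were at least 2-fold higher in it at 7 dpi, against 6.14% of all genes. *Fmod* in this division stood at 7998, 12147, 7128 and 1988 CPM and *Prg4* at 1631, 5229, 6853 and 165 CPM. *Col1a2* stood at 32816, 11841, 11972 and 16203 CPM in these cells, highest before injury.

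The members with *Kera* or *Chad* had higher levels of *Ccl2* and *Cxcl10* at 3 dpi than in Uninjured muscle, 2 genes among those with the largest ratios there. In these cells 7.16% of all genes were at least 2-fold higher and 8.52% at least 2-fold lower at 1 dpi, and 11 of 12 interferon-stimulated genes were higher. *Ccl2* stood at 64.5, 139, 871 and 217 CPM in these cells, a ratio of 13.5 at 3 dpi (10.1 to 18.6), and *Cxcl10*, an interferon-induced chemokine, at 26.1, 155, 563 and 71.3 CPM, a ratio of 21.6 (13.7 to 36.2). Over all members *Ccl2* stood at 1417, 254, 1130 and 248 CPM, highest in Uninjured muscle, where the cells without *Kera* and *Chad* carried it. *Cxcl5*, a neutrophil chemokine, stood at 31.95 CPM at 3 dpi in the cells with *Kera* or *Chad* and at 239 CPM in those without. Of 19 inflammation genes with at least 20 UMIs in the cells with *Kera* or *Chad*, 15 were at least 2-fold higher at 3 dpi, where 6.53% of all genes were, and over all members 9 of 23 were, where 2.02% of all genes were. In the cells with *Kera* or *Chad* 8 of 15 genes of this list were higher and 1 lower at 1 dpi, and 10 of 19 higher and 2 lower at 7 dpi, whereas over all members 2 of 20 were higher and 8 lower at 1 dpi, and 3 of 25 higher and 8 lower at 7 dpi. In other mesenchymal cells 9 of 25 were higher and 2 lower at 3 dpi, where 2.80% of all genes were higher and 2.16% lower. Of the cell cycle genes 9 of 13 were higher at 3 dpi and 14 of 20 at 7 dpi in the cells with *Kera* or *Chad*, where 6.53% and 6.14% of all genes were, and *Top2a*, a topoisomerase of dividing cells, stood at 1.37, 4.09, 46.7 and 73.1 CPM. Over all members 15 of 19 genes of the cell cycle list were at least 2-fold lower at 1 dpi, where 6.15% of all genes were, against 0 of 3 in the cells with *Kera* or *Chad*, and 5 of 20 were higher at 3 dpi, where 2.02% were, and 1 of 20 at 7 dpi, where 1.96% were. In Uninjured muscle the list summed to 199 CPM in the cells with *Kera* or *Chad* and to 1382 CPM in those without, and *Cdk1*, a kinase of dividing cells, had 0 and 189 UMIs. In other mesenchymal cells 18 of 20 were higher at 3 dpi and 7 of 20 at 7 dpi, where 2.80% and 2.57% of all genes were.

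At 7 dpi cartilage genes were high in the members, and over all members their sum was lower than outside them. *Col2a1* stood at 24.2, 7.76, 4.18 and 1224 CPM in members, at 0.230, 0.516, 0.258 and 3661 CPM in other mesenchymal cells and at 1.08, 0.0444, 0.0309 and 2585 CPM in *Ptprc*-positive cells. *Acan*, which encodes the cartilage proteoglycan aggrecan, stood at 2.54, 0, 3.71 and 549 CPM in members. Of 16 chondrocyte markers 11 were at least 2-fold higher at 7 dpi than in Uninjured muscle, where 1.96% of all genes were. Their summed level was 215, 225, 96.6 and 3095 CPM in members, 53.3, 70.8, 63.2 and 8014 CPM in other mesenchymal cells and 20.6, 18.1, 22.2 and 5692 CPM in *Ptprc*-positive cells, with *Col2a1* the most abundant. The 16 leukocyte markers summed to 30.5, 274, 143 and 482 CPM in members against 27489, 32651, 20471 and 10667 CPM in *Ptprc*-positive cells. The cartilage sum at 7 dpi was higher in *Ptprc*-positive cells than over all members, but the division of the members went both ways. In the members with *Kera* or *Chad* the sum was 6808 CPM, with *Col2a1* at 3187 CPM. That sum was above the *Ptprc*-positive cells and below the 8014 CPM of other mesenchymal cells. *Chad*, which is also made by cartilage, was used to pick these members, so their cartilage level is a description. In the members without *Kera* and *Chad* the sum was 2463 CPM, below the *Ptprc*-positive cells. The part of free RNA in the members' cartilage genes was not tested. Interstitial fibroblast markers were lower at 7 dpi, with 13 of 18 at least 2-fold lower and 1 higher, where 2.37% of all genes were lower and 1.96% higher. Among the members with *Kera* or *Chad* 6 of 18 were lower and 2 higher, where 3.5% of all genes were lower and 6.14% higher. In other mesenchymal cells 16 of 18 were lower and 0 higher, where 3.165% of all genes were lower and 2.57% higher.

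**Figure D5:**
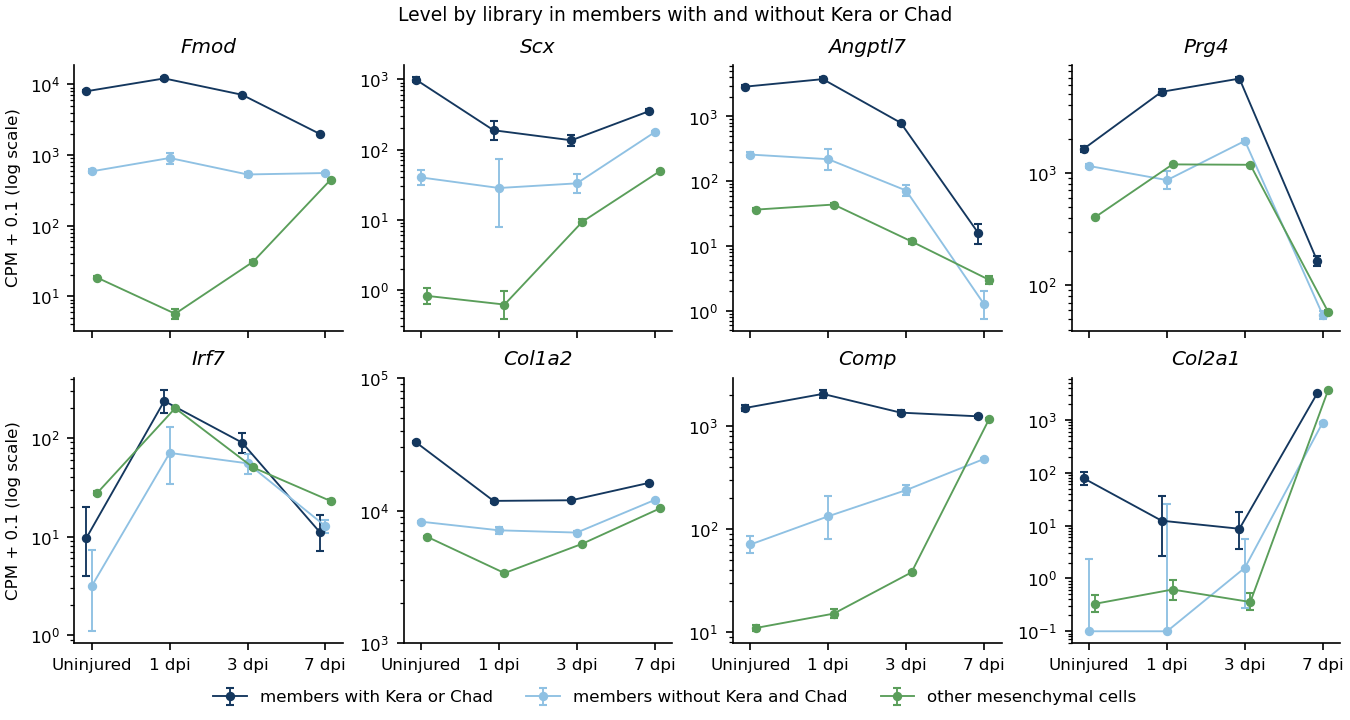
Level of 8 genes by time point, in CPM on a log axis, in members with and without *Kera* or *Chad* and in other mesenchymal cells, 1 library a time point. *Irf7* peaks at 1 dpi, *Prg4* in the members with *Kera* or *Chad* at 3 dpi at 6853 CPM, and *Col2a1* is high in every group at 7 dpi.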

How the data were processed

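Single-cell suspensions of collagenase-digested muscle were sequenced on the 10x platform. The authors used Cell Ranger 5.0.0 with STAR, and the processing notes name mm10 and Seurat 3.1.1. The deposited values are UMI counts per gene and barcode, whole numbers without scaling; the methods mention down-sampling of reads, and whether it precedes these counts is not given in the sources used here. Members, comparison groups and gene lists were chosen with earlier results of these data known. Counts were summed per group and library and fitted with edgeR 4.0.16 (TMM, filterByExpr, library as block, glmQLFit with its default dispersion settings) without *Tnmd*, *Thbs4*, *Ptprc*, *Prrx1*, *Col1a1* and mitochondrial genes. Same-library groups come from the same pool of 3 muscles, which is the pairing. On simulated counts for members against other mesenchymal cells (12563 genes), 76% of 2-fold and 100% of 4-fold changes were recovered and 0.0739% of unchanged genes called. The simulation gave each gene the same mean in all libraries and all genes the same dispersion. It held no differences between time points and changed no genes of low level, so these rates do not carry over to the data. Named genes were the listed genes, the 10 largest calls per direction (at least 50 UMIs, same sign in every library) and the 10 largest ratios over time. Gene positions were taken from GENCODE M21. Doublets were scored with Scrublet in scanpy 1.11.5 and kept; alternatives included DESeq2 1.42.0, with R 4.3.3 and Python 3.11.15.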

Additional observations from a re-analysis of the deposited data

Results flagged for a closer look

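*Wif1* moved in opposite directions in 2 groups of cells between Uninjured muscle and 7 dpi. Its ratio was 0.0174 in members and 38.3 in other mesenchymal cells (exact interval 14.6 to 142), where the Uninjured level was 0.0613 CPM and the 7 dpi level 2.35 CPM. With 1 library a time point the difference was not tested.

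Outside the mitochondrial limit, 32 cells at 7 dpi held the UMIs that the rule asks for, against 0 in Uninjured muscle, 3 at 1 dpi and 2 at 3 dpi. They were not used.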

How the results depend on the processing

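The fit depended on the libraries and on the model more than on the scaling. Against other mesenchymal cells, the number of genes higher in members was 214 with no filter on low counts, 86 with the filter doubled, 234 with a comparison group without *Tnmd* and *Thbs4*, 389 by DESeq2 and 2 to 348 with 1 library left out. The number lower was 185 with no filter, 244 with a comparison group that also held *Pdgfra*, 261 without *Tnmd* and *Thbs4*, 265 by DESeq2 and 1 to 346 with 1 library left out. Against cells with *Tnmd* and no *Thbs4*, the number higher was 84 with no filter, 269 by DESeq2 and 0 to 213 with 1 library left out, and the number lower 204, 423 and 0 to 401, with 52 in cells thinned to 1000 UMIs. Without the replicate block, which pairs the groups of a library, edgeR called 13 higher and 0 lower against other mesenchymal cells, and 0 and 0 against cells with *Tnmd* and no *Thbs4*, with 751 and 759 genes at an unadjusted p under 0.05. A robust dispersion estimate gave 85 and 68 calls against other mesenchymal cells and 21 and 77 against the cells without *Thbs4*. That fit was run first, and the default estimate reported above was adopted after its counts had been seen, so the larger counts should be read with the smaller ones; 153 of the 230 and 98 of the 145 calls passed in both. Of the 230 calls, DESeq2 called 230 too, and of the 145 it called 144. The adjusted p of *Kera* ran from 2.35e-12 to 0.0856 over the settings and that of *Scx* from 1.45e-05 to 0.663.

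The number of members was 1085 at 7 dpi with at least 2 *Tnmd* UMIs, and 72, 35, 83 and 301 when *Kera* or *Chad* was also required, a choice made after the data were seen. Thinning to 2000 UMIs gave gate shares of 0.843%, 0.605% and 4.24% in Uninjured muscle and at 3 and 7 dpi. Thinning members to 1000 UMIs gave *Fmod* in 61.3%, 60.9% and 44.4% of them in Uninjured muscle and at 3 and 7 dpi, *Kera* in 31.6%, 29.1%, 22.5% and 6.47% over the 4 libraries, *Chad* in 20%, 19.9% and 2.03% in Uninjured muscle and at 3 and 7 dpi, *Scx* in 22.6%, 18.2%, 10.6% and 12.3% over the 4 libraries, and *Col2a1* in 1.94%, 1.33% and 29.3% in Uninjured muscle and at 3 and 7 dpi. Of the 474 listed genes measured, 16 were at least 2-fold higher and 31 lower at 1 dpi in thinned members. There 26 were higher at 3 dpi and 99 at 7 dpi, and in members with *Kera* or *Chad* 73 and 109 were. These counts took genes with at least 20 UMIs, whose number can differ between settings, so they are not compared. Without thinning, 5.75% of all genes were higher and 6.15% lower at 1 dpi in members. At 3 and 7 dpi 2.02% and 1.96% were higher, and 6.53% and 6.14% in members with *Kera* or *Chad*. Most of the named ratios to Uninjured moved in size: 53 moved and 17 did not in members thinned to 1000 UMIs, 59 and 15 with the mean of CPM per cell in place of summed UMIs, and 63 and 9 in members with *Kera* or *Chad*. Fewer moved with at least 1 (27) or 3 (11) *Thbs4* UMIs or without the highest doublet scores (8). A change of direction was looked for among those of these ratios that were at least 2-fold, up or down, over all members. In members with *Kera* or *Chad*, *Ly6a* at 7 dpi (2.10) and *Cthrc1* at 1 dpi (1.01) changed direction. In thinned members *Irf7* at 7 dpi (0.893) and *Col2a1* at 3 dpi (1.03) did. Smaller ratios that crossed 1 are not listed. The levels of *Ccl2* given above changed direction too. They were lower after injury than in Uninjured muscle over all members, and higher in the members with *Kera* or *Chad*. The causes were not tested. With 55 members at 1 dpi, genes of low level were not detectable there.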
